A study of Mus musculus with 4 samples.

Results

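The Bcl-2 family genes described here are 10 pro- and anti-apoptotic members that are not classic targets of p53. Their probes were found by the gene name in the scanner files. The members are Bcl2, Bcl2l1, Mcl1, Bak1, Bcl2l11, Bad, Bid, Hrk, Bmf and Bnip3, and they make up 10 of the 37074 gene names on the array and 23 of its 56605 probes. No probe under another gene name was assigned to a member through its accession or a synonym.

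Proteins of the Bcl-2 family decide whether the outer membrane of the mitochondrion stays closed. The pro-survival members hold the pore-forming executioners Bax and Bak in check, and the BH3-only members, which share a single short helix with the rest, bind to the pro-survival members or to the executioners when a cell is stressed. Once the membrane opens, cytochrome c leaks out and activates caspases. In heart muscle, Bcl2l1 (Bcl-xL) and Mcl1 are known as the pro-survival members that cardiomyocytes rely on, and Bnip3 is known for its induction by lack of oxygen and for its part in the removal of mitochondria.

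The hearts came from female C57BL/6J mice aged 6 weeks, injected intraperitoneally on 2 days and examined 3 h after the second dose. One group received normal saline (NS, the control), one cyclophosphamide (CY, an alkylating drug) at 400 mg/kg, one acrolein (a toxic breakdown product of CY) at 5 mg/kg, and one N-acetylcysteine (NAC, an antioxidant) at 200 mg/kg followed by CY at 400 mg/kg (NAC + CY). Each condition is represented by 1 single-colour Agilent array, and all 4 arrays lay on 1 slide. A section of the heart was used, and whether an array holds the RNA of 1 heart or of several is not given in the sources used here.

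Levels are log2 signals, quantile-normalised over the 4 arrays. Probes with a P flag (a clean signal well above background) on at least 1 of the 2 arrays compared were tested. The Z-score sets a probe's log2 ratio against the mean and SD of the ratios of the 200 probes closest to it in signal. A probe was called higher at a Z-score of at least 2 and a ratio of at least 1.5, and lower at a Z-score of at most -2 and a ratio of at most 0.66. With 1 array per condition no difference has a replicate check, no p-value is given, and a difference between arrays cannot be told apart from a difference between the hearts used. The error printed after a ratio is that of the scanner software, which covers the reading of the spots and not the spread between animals. In RNA from whole tissue, fewer cells of a type and less RNA per cell cannot be told apart either. The 3 comparisons with NS share the same NS array.

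Between 26677 and 28312 probes were well above background on an array, and the SD between repeated spots of the same probe was 0.046 to 0.050 on the log2 scale. All 10 cardiomyocyte markers were well above background on every array. Against NS, 2 of 10 were called lower in CY, Actc1 (log2 ratio -1.30) and Ryr2 (-1.39). The same genes were called lower in NAC + CY (-1.08 and -1.24), and none of the 10 was called in acrolein. The cardiomyocyte sum was 1.95e+06 for NS and 1.69e+06 for CY. It was 1.95e+06 for acrolein and 1.77e+06 for NAC + CY. The arrays also differed in markers of other tissue. The signal of the 7 atrial markers summed to 306606 on NS, 815756 on CY and 382870 on acrolein, with 495192 on NAC + CY, and 7 of 7 were called higher in CY against NS, among them Dkk3 (log2 ratio 3.20), Stard10 (1.91) and Bmp10 (at least 6.29-fold). That of the 10 platelet markers summed to 2903, 7714, 2829 and 2098, with 7 of 10 called higher in CY. The 7 erythroid markers summed to 171380, 176497, 132052 and 76213. Of the T and natural killer cell markers, 4 of the 8 tested were called lower in CY and 6 of 8 in NAC + CY. The 8 mesothelial markers summed to 2393, 7124, 1228 and 2399 in the same order of arrays, and 7 of 8 were called higher in CY and 7 of 8 lower in acrolein. The 8 adipocyte markers summed to 13853, 18289, 9223 and 29440, with 6 of 8 called lower in acrolein and 5 of 8 higher in NAC + CY. Neutrophil markers summed to 9705, 10856, 12451 and 13380, with 4 of the 6 tested called higher in acrolein and 5 of 6 in NAC + CY. Hepatocyte markers summed to 2430, 8137, 1913 and 15524, with 8 of 9 called higher in NAC + CY, and 4 of 9 fibroblast markers were called lower there. The 10 mural (vessel-wall) markers summed to 39962, 22133, 39882 and 20547. Of these, 3 were called lower and 2 higher in CY, and 3 lower and 0 higher in NAC + CY. The part of these differences in the values of the Bcl-2 family was not tested.

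Several members are read by more than 1 probe, and the sequences below show which stretch of RNA stands behind the values that matter most. The middle 30 bases of each 60-base probe are printed in lower case, 5′ to 3′, with positions on mm9 as the array files give them. The first 3 are the probes of the members called in CY, and the last 4 are the probes of Bcl2l11, which gave different values along the gene.
Bcl2l1, chr2:152606404-152606463, minus strand: gtgaaagtgcagttcagtaataaatggtgt
Hrk, chr5:118639423-118639482, plus strand: ttgtacatatttgttacacttttatttaaa
Bnip3, chr7:146082760-146082819, minus strand: caaagctgcttaaatcgggcgtcctcccag
Bcl2l11 probe 4, chr2:127954736-127955417, plus strand: atcagttggagaatcttaaccaagtggcac
Bcl2l11 probe 2, chr2:127957112-127957171, plus strand: aagtcgttttactcgatagcagcctccata
Bcl2l11 probe 3, chr2:127972893-127983988, plus strand: tcaacgaaacttacacaaggagggtgtttg
Bcl2l11 probe 1, chr2:127988051-127988110, plus strand: tgtatagtccccatcactaatgtcagaacc

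Of the 23 probes, 20 had a P flag on at least 1 array and 19 on all 4. The 3 without one, which were not well above background, were the third probe of Bcl2 and the second probes of Bid and Hrk. Probes of a gene are numbered from the brightest.

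**Figure D1:**
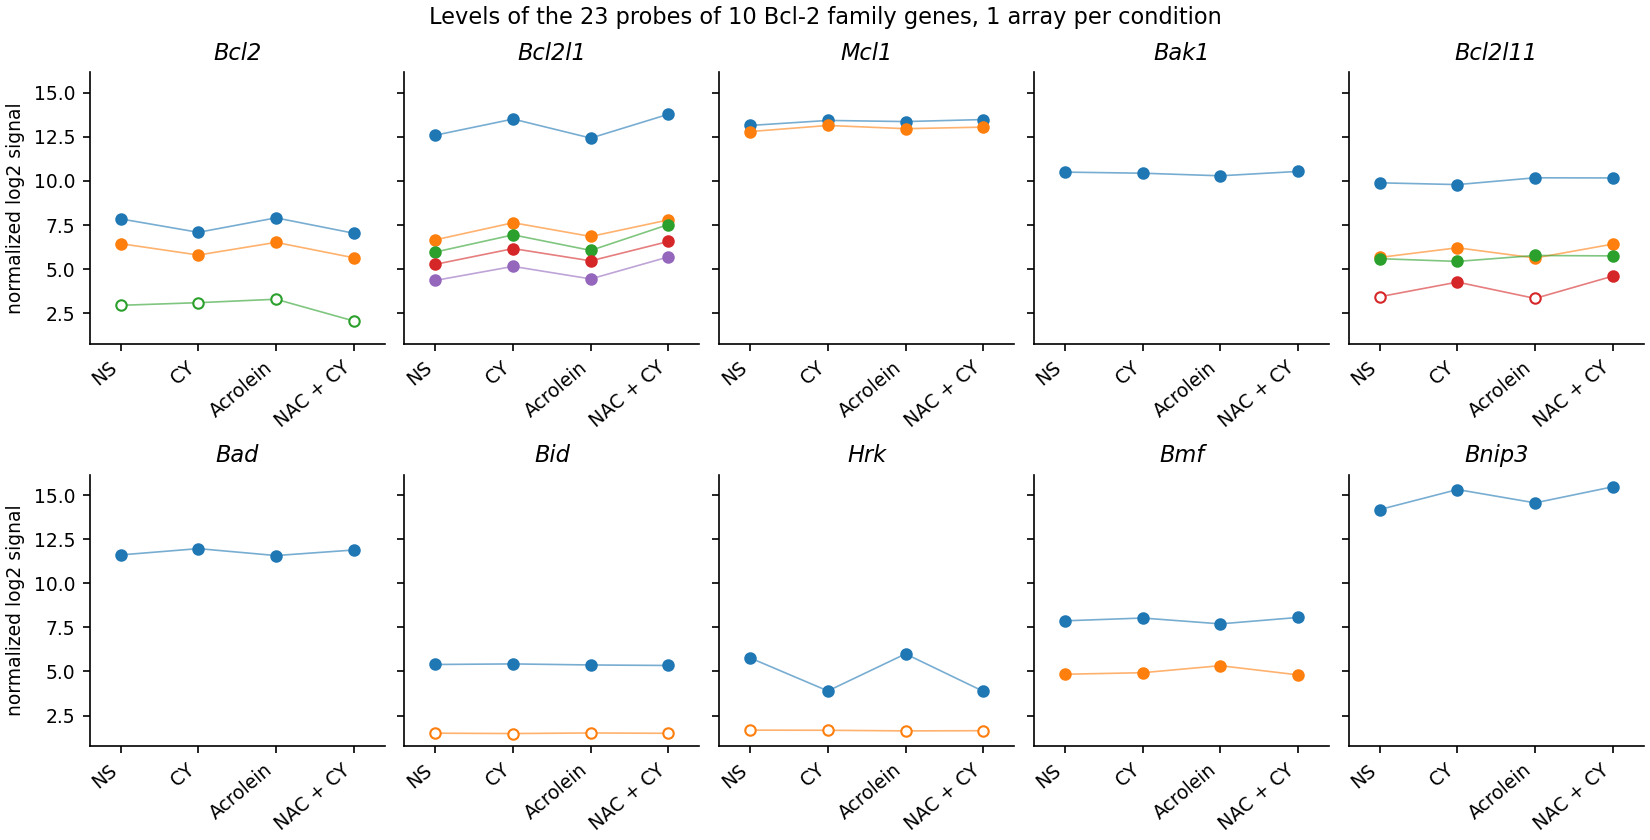
Normalised log2 signal (y axis) of each of the 23 probes on the 4 arrays (x axis), 1 panel per gene and 1 line per probe; filled points were well above background and open points were not. The 5 probes of Bcl2l1 and the probe of Bnip3 are higher on CY and NAC + CY than on NS, the measured probe of Hrk is lower on both, and the lines of Mcl1, Bak1, Bad and Bid are nearly flat.

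In the CY-treated heart, 2 of the 20 tested probes of the family were called higher than in NS and 1 was called lower. They belong to Bcl2l1 and Bnip3, which rose 1.88-fold and 2.20-fold, and to Hrk, which was 3.65-fold lower. Of all 28757 probes tested, 2.84% were called higher and 2.55% lower. The median log2 ratio of the family's 20 probes was 0.32, with 14 of them above 0, against -0.011 for all probes. By the brightest probe of each gene, 2 of 10 genes were higher and 1 was lower, against 3.38% and 2.82% of all 19705 genes, and the median was 0.095 against -0.016.

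NAC + CY differed from NS in the same 3 genes, with 5 of 20 probes called higher (2.32% of all 28885 probes) and 1 called lower (2.28%). The 5 probes are 4 of Bcl2l1 and the 1 of Bnip3. The family's median log2 ratio was 0.28, against 0.0056 for all probes. By the brightest probe, 2 of 10 genes were again higher (2.68% of all genes) and 1 lower (2.59%), and the median was 0.23 against -0.0091.

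In the acrolein-treated heart none of the 19 tested probes was called in either direction, beside 1.05% called higher and 1.24% called lower among all 28665 probes. The ratios ran from -0.21 to 0.49, with a median of 0.090. By the brightest probe none of the 10 genes was called, beside 1.08% higher and 1.29% lower among all genes. The median by gene was 0.016, against 0.00815 for all genes. NAC + CY against CY gave no call among the 20 tested probes either, beside 1.25% higher and 2.34% lower among all 29350, and none of the 10 genes by the brightest probe, beside 1.54% and 2.82%. There the ratios ran from -0.15 to 0.58, with a median of 0.13 against 0.031 for all probes. By the brightest probe of each gene the median was 0.041, against 0.018 for all genes. With 1 array each, a true difference in these members of the size of the window SD would have gone uncalled. Over all probes that SD had a median of 0.58 log2 units for CY against NS. It was 0.22 for acrolein against NS and 0.41 for NAC + CY against CY. Larger differences could go uncalled too, because a call also had to pass the ratio criterion, whatever its Z-score. In acrolein this criterion left Bnip3 uncalled, at 1.30-fold (log2 ratio 0.38) with a Z-score of 3.13. The size that could be missed in acrolein was therefore larger than 0.22.

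**Figure D2:**
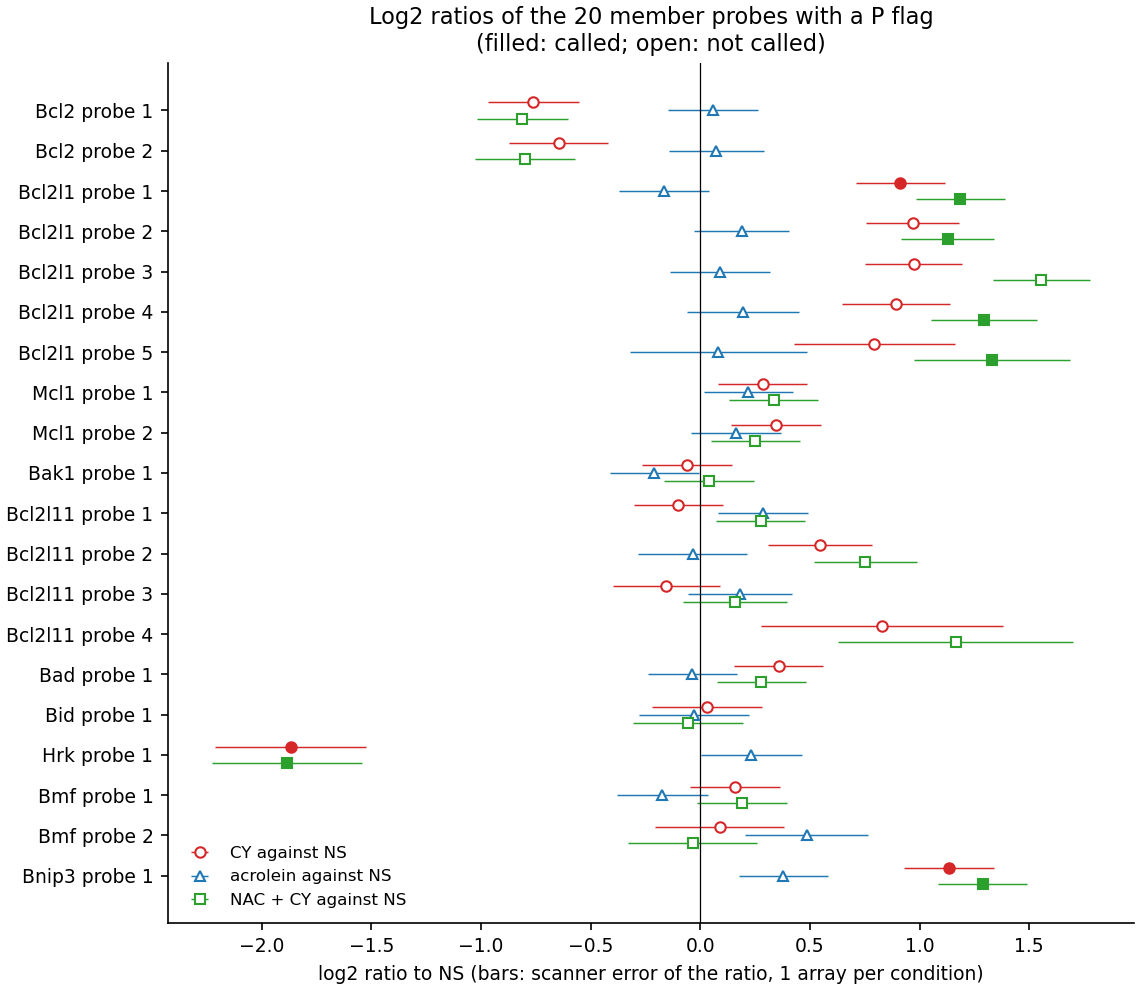
Log2 ratio to NS (x axis) of the 20 probes with a P flag (y axis, grouped by gene) for CY, acrolein and NAC + CY; bars show the scanner error of the ratio, filled symbols were called and open ones were not. The 5 probes of Bcl2l1 lie between 0.79 and 0.97 for CY and between 1.13 and 1.56 for NAC + CY, and the probe of Hrk lies at -1.87 and -1.89.

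Among the pro-survival members, Bcl2l1, which encodes Bcl-xL, was the one that was called. Its brightest probe read 12.60 on NS, 13.51 on CY, 12.43 on acrolein and 13.78 after NAC + CY. The CY and NAC + CY arrays were thus the high ones, and acrolein was slightly under NS. The log2 ratio was 0.91 ± 0.20 (scanner error) for CY, with a Z-score of 2.19, -0.17 for acrolein and 1.19 ± 0.20 for NAC + CY, with a Z-score of 3.33. NAC + CY lay 0.27 above CY, which was not called.

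Bcl2l1 is the member with the most probes, and they lie at both ends of the gene on the minus strand of chromosome 2. By their mm9 positions probes 1 and 2 overlap near the 3′ end (152606400 to 152606463). Their listed starts within the transcript, 2563 and 1419, lie apart, and the position of probe 2 spans 47 bases. The middle 30 bases of the 2 probes hold no long shared run, and the full probes hold 38.3% and 58.3% G or C bases. They therefore appear to read different stretches, and the listed position of probe 2 is uncertain. Probes 3, 4 and 5 lie up to 49.34 kb upstream, within 152655185 to 152655789. Probe 2 read 6.67, 7.63, 6.85 and 7.79 on NS, CY, acrolein and NAC + CY. Probe 3 read 5.97, 6.95, 6.06 and 7.53. Every one of the 5 probes thus had CY and NAC + CY above NS and above acrolein.

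Over the 5 probes the ratio to NS had a median of 0.91 in CY, with an SD between probes of 0.073, and of 1.29 in NAC + CY, with an SD of 0.17. In acrolein the median was 0.090. The ratios of all 5 probes were therefore alike in CY, although 1 of 5 was called. Probe 3, for instance, had a ratio of 0.97 and a Z-score of 1.36, because the probes near it in signal spread by an SD of 0.74 against 0.44 for those near the brightest probe. In NAC + CY 4 of 5 were called, and probe 3, with the highest ratio (1.56), missed the criterion at a Z-score of 1.98. Probes that share a gene are not replicates of a condition, so their likeness is no measure of the spread between animals. The summed adipocyte markers stood in the same order over the 4 arrays as the brightest probe of Bcl2l1. Both were lowest on acrolein and highest on NAC + CY, and the hepatocyte sum had that order too. The other 4 probes of Bcl2l1 instead read above NS on acrolein, with ratios from 0.082 to 0.19. On CY, 5 of the 9 hepatocyte markers were not well above background. Ahsg (2.57) and Ttr (2.98) were called higher in CY, whereas Apoa2 (-0.26) and Serpina1a (-1.01) were lower and not called. The neutrophil sum was also highest on NAC + CY, with NS lowest. Platelets and young red cells are known to hold Bcl-xL. Of the platelet markers 7 of 10 were called higher in CY and 0 of the 7 tested were called in NAC + CY, and the erythroid sum was 176497 on CY and 76213 on NAC + CY against 171380 on NS. The part of any of these cells in the values of Bcl2l1 was not tested.

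**Figure D3:**
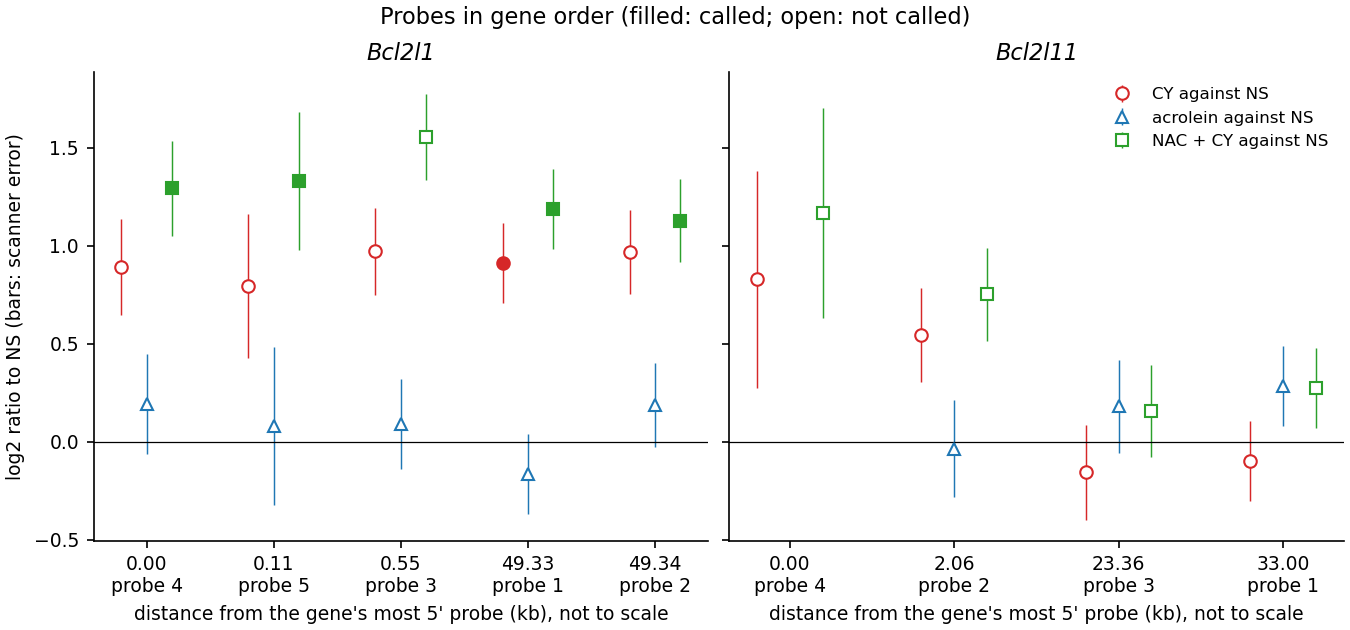
Log2 ratio to NS (y axis) of the probes of Bcl2l1 and Bcl2l11, ordered from 5′ to 3′ with their distance in kb from the most 5′ probe (x axis, not to scale); bars show the scanner error, filled symbols were called and open ones were not. The 5 probes of Bcl2l1 give like ratios at both ends of the gene, whereas the 2 most 5′ probes of Bcl2l11 lie above its 2 other probes for CY and NAC + CY.

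Bcl2, the founding pro-survival member, had lower values on CY and NAC + CY than on NS but was not called. Probe 1 (chr1:108434793-108434852, minus strand) read 7.85 on NS, 7.09 on CY, 7.91 on acrolein and 7.04 after NAC + CY. Probe 2, which stands for a second transcript form and lies at chr1:108608970-108609029, read 6.45, 5.80, 6.52 and 5.65. Both probes were lower on CY and NAC + CY than on NS and acrolein. The ratios for CY were -0.76 ± 0.21 and -0.64 ± 0.23, with Z-scores of -1.15 and -1.10. For NAC + CY they were -0.81 and -0.80, with Z-scores of -1.26 and -1.43. These ratios exceed the scanner error, yet they lay within the spread of probes of like signal.

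Mcl1, a short-lived pro-survival protein, was measured by 2 probes. Its brightest probe (chr3:95467049-95467108, plus strand) read 13.15 on NS, 13.43 on CY, 13.37 on acrolein and 13.48 after NAC + CY. The second probe, slightly upstream of it, read 12.80, 13.15, 12.96 and 13.05. All 3 treated arrays were thus above NS by both probes, with ratios between 0.16 and 0.35 that were not called.

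Bak1, the executioner in the set, encodes a protein that forms pores in the outer mitochondrial membrane. Its probe (chr17:27156807-27156866, minus strand) read 10.50 on NS, 10.44 on CY, 10.29 on acrolein and 10.54 after NAC + CY. No array stood apart. The ratio to NS was near the scanner error of 0.20 in acrolein (-0.21) and well within it in CY (-0.062) and NAC + CY (0.039).

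Among the BH3-only members, Hrk (harakiri), a neuronal death gene that binds Bcl-2 and Bcl-xL, was the one that was called. Its measured probe read 5.76 on NS, 3.89 on CY, 5.99 on acrolein and 3.88 after NAC + CY. The values fell into a high pair, NS and acrolein, and a low pair, CY and NAC + CY. The log2 ratio was -1.87 ± 0.34 for CY, with a Z-score of -3.35, 0.23 for acrolein and -1.89 ± 0.34 for NAC + CY, with a Z-score of -2.38. The log2 ratio of NAC + CY to CY was -0.018. The summed mural, cardiomyocyte, and T and natural killer cell markers were also lower on CY and NAC + CY than on NS and acrolein. Their part in the Hrk values was not tested.

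The Hrk signals were dim, at 50.9 on NS and 16.7 on CY in the scanner's units before normalisation, although still well above background on all 4 arrays. With the normexp background correction and its offset of 50, the ratio shrank to -0.64 for CY and -0.62 for NAC + CY and was still called. The second Hrk probe, at chr5:118634638-118634697 and upstream of the first, had no P flag on any array, so the lower level rests on 1 probe.

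Bcl2l11 encodes Bim, a BH3-only protein that binds all pro-survival members, and none of its 4 probes was called. Probe 1, the brightest and the most 3′, read 9.89 on NS, 9.79 on CY, 10.18 on acrolein and 10.17 after NAC + CY. Probe 3, whose position stretches over 11096 bases and so crosses an intron, belongs to the same transcript in the files and read 5.59, 5.44, 5.78 and 5.75. Both were lowest on CY, by ratios of -0.10 and -0.15 to NS.

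The other 2 probes of Bcl2l11 lie upstream of these, ending by 127957171, whereas probe 3 starts at 127972893. They stand for another transcript form in the files. Probe 2 read 5.67 on NS, 6.21 on CY, 5.63 on acrolein and 6.42 after NAC + CY. Probe 4 read 3.44, 4.27, 3.34 and 4.60, and was not well above background on NS and acrolein. These probes were highest on NAC + CY and next highest on CY, unlike probes 1 and 3. Probe 2 had ratios to NS of 0.55 in CY and 0.75 in NAC + CY, and probe 4 was at least 1.17-fold higher in CY and at least 1.48-fold higher in NAC + CY. The SD between the 4 probes was 0.48 log2 units for CY against NS (0.073 for Bcl2l1) and 0.072 for NAC + CY against CY. The Z-scores of probes 2 and 4 were at most 1.57, and whether the transcript forms differ between the conditions was not tested.

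Bad, which frees the executioners when it is not phosphorylated, read 11.60 on NS, 11.96 on CY, 11.57 on acrolein and 11.88 after NAC + CY (chr19:7026323-7026382, plus strand). CY and NAC + CY were the higher pair, with ratios of 0.36 and 0.28 and Z-scores of 0.88 and 0.80, and were not called. Bid, which death receptors activate through caspase 8, read 5.39, 5.43, 5.37 and 5.34 (chr6:120843464-120843523, minus strand). Its 4 values span 0.088 log2 units, less than the scanner error of 0.25 of a single ratio.

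Bmf, a BH3-only protein held at the cytoskeleton, has 2 probes on the minus strand of chromosome 2. Probe 1 (118354496 to 118354555) read 7.87 on NS, 8.03 on CY, 7.70 on acrolein and 8.06 after NAC + CY. Probe 2 (118358312 to 118358371) read 4.84, 4.93, 5.33 and 4.81. The probes disagree in order, since acrolein was lowest by the first (-0.17) and highest by the second (0.49), and none of these ratios was called.

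Bnip3, a BH3-like protein of the outer mitochondrial membrane, was called higher by its single probe. It read 14.18 on NS, 15.31 on CY, 14.55 on acrolein and 15.46 after NAC + CY, so every treated array was above NS and acrolein lay between NS and the other two. The log2 ratio was 1.13 ± 0.20 for CY, with a Z-score of 2.94, and 1.29 ± 0.20 for NAC + CY, with a Z-score of 4.54. In acrolein the ratio was 0.38 ± 0.20. That gave a Z-score of 3.13, but at 1.30-fold it was under the ratio criterion and was not called. NAC + CY exceeded CY by 0.15, which was not called.

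**Figure D4:**
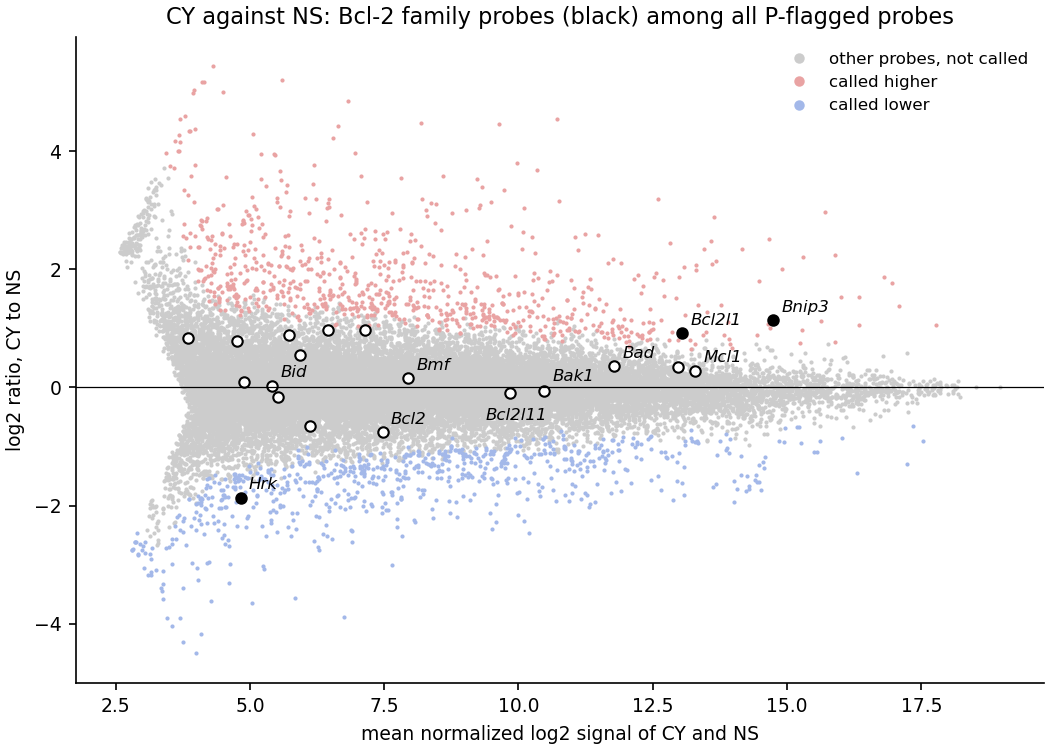
Log2 ratio of CY to NS (y axis) against the mean normalised log2 signal of the 2 arrays (x axis) for the 28757 tested probes, with those of the Bcl-2 family in black outline, filled where called, and the brightest probe of each gene named. Bnip3 and Bcl2l1 lie above the grey band of uncalled probes at high signal, Hrk lies under it at low signal, and Bcl2 lies inside its lower edge.

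Bnip3 is the one member whose promoter table entry held the short motif ACGTG, the core that hypoxia-inducible factors are known to bind, and it is printed for that reason. RefSeq promoter windows, of which the 250 bases upstream of the start were used, were at hand for all 10 members (16 windows, GRCm38.p6). ACGTG or its reverse complement CACGT was found in 1 of the 16 windows and in 16.6% of the 32851 windows of that length in the table. In Bnip3 both strands match within a single CACGTG, shown in capitals, at 108 to 103 bases before the start, and 6.02% of all windows hold CACGTG. These motifs were chosen with the values known, and a match is a run of letters and not a measured binding site.
Bnip3, chr7:138909507-138909756, minus strand: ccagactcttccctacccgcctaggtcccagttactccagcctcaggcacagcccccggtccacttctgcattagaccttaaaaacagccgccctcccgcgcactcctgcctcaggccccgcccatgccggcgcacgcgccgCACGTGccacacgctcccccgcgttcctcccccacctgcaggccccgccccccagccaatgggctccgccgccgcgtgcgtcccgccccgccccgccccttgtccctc

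The other motifs searched, on both strands, were TTCNNNGAA (in 7.02% of all windows), TGTTTAC (3.17%) and TGACGTCA (1.55%). TGTTTAC, a forkhead-type motif, was found in a window of Bcl2l11, and none of the motifs in the windows of the other 8 members.

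The genes whose 3 log2 ratios to NS lay nearest to those of each called member were sought among 17843 genes with a P flag on all 4 arrays, by the Euclidean distance over the 3 treated arrays. For Bcl2l1 they were Bbof1 (distance 0.069), Frmd8os (0.093) and A930015D03Rik (0.11). For Hrk they were Akap7 (0.11), Stra6 (0.18) and Elmo1 (0.20), and for Bnip3 Ccdc184 (0.091), the transcript ENSMUST00000156905 (0.13) and 3010003L21Rik (0.13). A pattern over 3 arrays that share a control is matched by many genes, and the names are a description only.

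The rest of the pathway was described by lists of genes, each read by its brightest probe. Among all genes read this way, 3.38% were called higher and 2.82% lower in CY. The shares were 1.08% and 1.29% in acrolein, 2.68% and 2.59% in NAC + CY, and 1.54% and 2.82% in NAC + CY against CY. Counts in the lists are to be read beside these shares, and no list was tested for an excess of calls. In the remainder of the Bcl-2 family the calls in CY fell on known targets of p53. Among the other executioners, Bax was higher in CY (1.17, by both of its probes) and in NAC + CY (1.10), 1 of 3 tested genes, whereas Bok and Bcl2l13 were not called. Among the other BH3-only and BNIP genes 2 of 9 were higher in CY: Bbc3 (Puma) at 1.39, and Pmaip1 (Noxa), at least 7.65-fold higher. In NAC + CY both were higher again, at 1.20 and at least 6.33-fold, and in acrolein none of 8 was called. Bnip3l, the closest relative of Bnip3, had ratios of 0.30, -0.084 and 0.13 in CY, acrolein and NAC + CY and was not called.

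None of the 3 tested genes among the other pro-survival members was called in CY, where Bcl2a1d had a ratio of -1.17 and Bcl2l2 (Bcl-w) of 0.15. Bcl2a1d, a gene of white blood cells, was called higher in acrolein (0.72) and lower in NAC + CY (-1.72). It has near-identical copies, so its probe may read more than 1 gene.

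In the list of caspase and apoptosome genes 1 of 16 was higher in CY (3.38% of all genes), the inflammatory caspase Casp4 with a ratio of 1.17. Casp4 was called in NAC + CY (1.13) as well, and in acrolein (0.99), where none of the 10 members was. The list's median was -0.024 in CY, near that of all genes. Of the inhibitors of apoptosis and their antagonists none of 10 was called in CY or NAC + CY and none of 11 in acrolein, with Naip2 (-0.70), Nol3 (0.61) and Birc6 (-0.52) the farthest from 0 in CY.

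In the death receptor pathway 2 of 16 genes were higher in CY (3.38% of all genes). They were the receptors Fas (0.93, by 1 of its 3 probes) and Tnfrsf1a (0.86), and the list's median was 0.23. None of 16 was called in acrolein or NAC + CY. Among the mitochondrial partners and mitophagy genes, which hold the channels and the autophagy proteins that Bnip3 works with, 1 of 21 was called in CY. It was the ubiquitin ligase Park2, lower at -1.12, beside 2.82% of all genes called lower. The median of the 21 was -0.14. Sqstm1, an adaptor of autophagy, had a ratio of 0.74 in CY and 0.74 in NAC + CY and was not called.

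Among the kinases and other regulators of Bcl-2 proteins 1 of 28 was higher in CY, the glucocorticoid-induced Tsc22d3 (0.90). The stress kinase Mapk10 (-1.54) was the 1 called lower, and the list's median was -0.29. Among all genes 3.38% were called higher and 2.82% lower in CY. Mapk10 was called higher in NAC + CY than in CY (0.98). Of 20 genes known to be induced by hypoxia, as Bnip3 is, 1 was higher in CY and 2 were lower. The peptide hormone Adm was at 1.71, Vegfa at -1.10 (4 of 4 probes) and the hexokinase Hk2 at -1.42, and the median was -0.18. None of the 20 was called in NAC + CY against NS or in acrolein. Against CY, NAC + CY was lower in Adm (-1.12) and higher in Hk2 (0.68), whereas Bnip3 was not called.

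**Figure D5:**
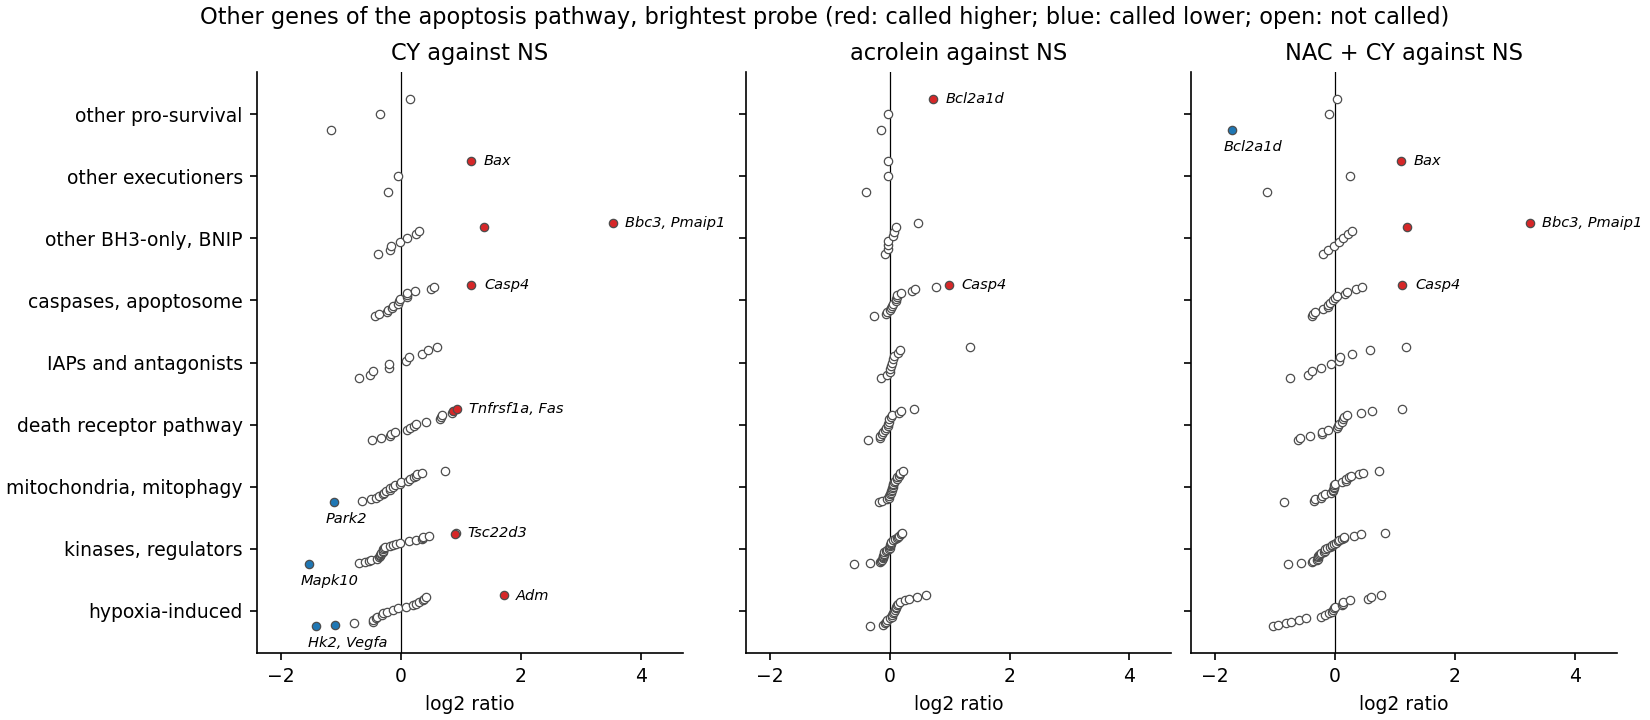
Log2 ratio to NS (x axis) of each gene of 9 pathway lists (y axis) by its brightest probe for CY, acrolein and NAC + CY; red genes were called higher, blue ones lower and open ones were not called. Names of called genes stand beside the outermost of them, from left to right, and most genes of every list lie in the uncalled middle.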

How the data were processed

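Heart RNA of 4 mouse groups was measured, 1 array each (SurePrint G3 Mouse). The deposited intensity values are background-subtracted spot signals from Agilent Feature Extraction (10.7.1.1 in the file headers, 9.5.1.1 in the submitters' notes), on linear scale and not normalised. The authors' deposited value table holds linear intensity with a median of 13.9 on each array and tracked the scanner signals closely. It was used as an alternative.

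The criteria follow the methods, which state quantile normalisation, P flags, Z-scores by intensity, and a ratio. After log2 transformation of the 59305 spots that are not controls, arrays were quantile-normalised together and spots averaged per probe (56605 probes). A P flag is a positive, significant signal that is well above background, unsaturated and not an outlier. No spot was saturated. The Z-score window of 200 probes is not given in the methods.

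Gene names came from the RefSeq table of GRCm38.p6 through accessions (32994 probes), symbols (10224) or synonyms (520), and otherwise from the file (12867). Members were taken by the file's gene name. A probe not well above background on 1 array is given as at least N-fold, against the lowest signal well above background there. Scanner error combines the software's signal errors of both arrays. Precision is limited by the 4 arrays.

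The members, the 9 pathway lists and the 14 marker lists were chosen with earlier results of these data known, and the lists were written from general knowledge. One listed gene is not reported here and was left out of the counts. Named genes are all members, the called genes of each list or up to 3 with the largest ratio, and the 3 nearest patterns. The calling was tested on simulated data. Python 3.11.15, numpy 2.4.6, pandas 2.3.3, matplotlib 3.10.9, and limma 3.58.1 in R 4.3.3 (normexp, offset 50) were used. In all, 14 settings were tried.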

Additional observations from a re-analysis of the deposited data

How the results depend on the processing

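The directions of the 9 called ratios of Bcl2l1, Hrk and Bnip3 were kept under every setting tried. Of the 117 combinations of a call and a setting, 105 kept the call. Settings that changed the filter, the window or the calling criteria reused the same ratios, so no direction could change there. The ratio alone could not lose a call, and the deposited value table held nearly the same values as those used here. Part of this stability was therefore fixed in advance. A Z-score of 3 left 0 member probes higher in CY (1.13% of all probes), where Hrk stayed called lower (0.664% of all probes). In NAC + CY against NS it left 2 higher (0.994%) and 0 lower (0.665%). A ratio of 2 left 1 higher in CY (2.59% of all probes), and Hrk stayed called lower. The ratio alone, without a Z-score, gave 7 higher and 3 lower of 20 in CY (11.8% and 11.1% of all probes tested) and 8 higher and 3 lower in NAC + CY (10.3% and 9.58%). A floor at the lowest signal well above background left 3 higher in NAC + CY (2.14% of all probes). Bcl2l1 by its brightest probe ranged from 0.85 to 0.95 in CY and Bnip3 from 1.03 to 1.19. Hrk ranged from -1.87 to -0.64, the smallest with normexp, whose added offset narrows the ratios of dim probes by construction. Normexp also left 51 probes higher and 67 lower among all probes in acrolein, against 302 and 355. Acrolein against NS and NAC + CY against CY gave 0 member calls under every setting. Of 1008 list counts under the alternatives, 66 moved by over 1.5 times. No paired analysis was possible because each condition has 1 array, and leaving out a replicate was not possible for the same reason.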
